A study of Ovis aries with 49 samples.

Results

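Nuclear genes for mitochondrial proteins were followed in brain, kidney and lung of fetal sheep, with the reads of each gene split by parent of origin. Members were chosen by symbol among the autosomal genes: subunits and assembly factors of the respiratory complexes (NDUF, SDH, COX, UQCR, ATP5), mitochondrial ribosomal proteins (MRPL and MRPS), import proteins (TIMM and TOMM), isocitrate and aldehyde dehydrogenases (IDH and ALDH), and the membrane proteins MFF and MTCH1. Of 7164 genes with an entry in the fetal lists, 74 were members. They had 524 entries at 179 SNPs, with 48 members listed in brain, 46 in kidney and 53 in lung.

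The study asked how the energy intake of the ewe bears on genomic imprinting, the expression of a gene from the copy of 1 parent. The dams were Western white-faced ewes and the sires 4 Dorset rams. Starting on gestation day 30 the ewes received 100% (control, 7 fetuses), 60% (restricted, 4 fetuses) or 140% (overfed, 4 fetuses) of the recommended total digestible nutrients. Brain, kidney and lung were taken at day 135 from each of the 15 fetuses, which gave 45 poly(A) RNA libraries, and DNA from ram blood told which base came from the father. The fetuses carry 12 ewe numbers, with 3 control fetuses under 1 number and 2 under another, which differs from the 3 twin pairs that the labels mention. All rams were of one breed and all ewes of another, with no cross the other way round, so the parent and the breed of an allele cannot be told apart. Each tissue is a mixture of its cell types.

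The lists are filtered, which shapes every value given here. An entry is a SNP at which the fetus is heterozygous and the ram homozygous, with at least 20.5 reads and at least 70.02% of them on 1 allele, so the paternal share at a single SNP lies under 30% or over 70% and a balanced SNP is missing rather than listed at 50%. Libraries held 272 to 1420 entries in brain, 172 to 1276 in kidney and 709 to 1993 in lung, with 7 to 19, 3 to 20 and 7 to 21 of them in members. There were 6 libraries, 4 of kidney and 2 of brain, with fewer than 400 entries. The tissue labels could be checked only where a marker had an entry: 6 of 14 kidney markers were listed in kidney, UMOD and AQP2 among them, against 0 in brain and 3 in lung; 4 of 14 brain markers were listed in brain, 3 in kidney and 2 in lung; and of 11 lung markers only SLC34A2 was listed in lung, while ABCA3 was listed in brain. The surfactant protein genes that define lung epithelium had no entry in lung.

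Mitochondria carry a small genome of their own, but nearly all of their proteins are encoded in the nucleus, made in the cytosol and imported through the TOMM and TIMM complexes. Complexes I to IV of the inner membrane pass electrons to oxygen and pump protons, and complex V uses the proton gradient to make ATP. The mitochondrial ribosome translates the mitochondrial mRNAs, and the matrix dehydrogenases supply the chain with reduced cofactors.

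Of 158 members with an informative SNP in any fetus, 74 (46.8%) were listed, against 6885 of 14841 autosomal genes (46.4%). Members had more of their informative SNPs listed, 179 of 936 (19.1%) against 12.6% over all autosomal genes. Of the pairs of a fetus and a SNP that were listed in any tissue, 14.6% were listed in all 3 tissues for members and 5.94% for all autosomal genes. The gap in the last 2 figures was not tested. No symbol starting with UQCR was listed, complex IV was listed through COX15 alone, and complex II through SDHD and the assembly factors SDHAF3 and SDHAF4, so that much of complexes II to IV was not analysed here. By tissue, 26 members were listed in 1 tissue, 25 in all 3 tissues, and 25 in a single fetus.

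**Figure D1:**
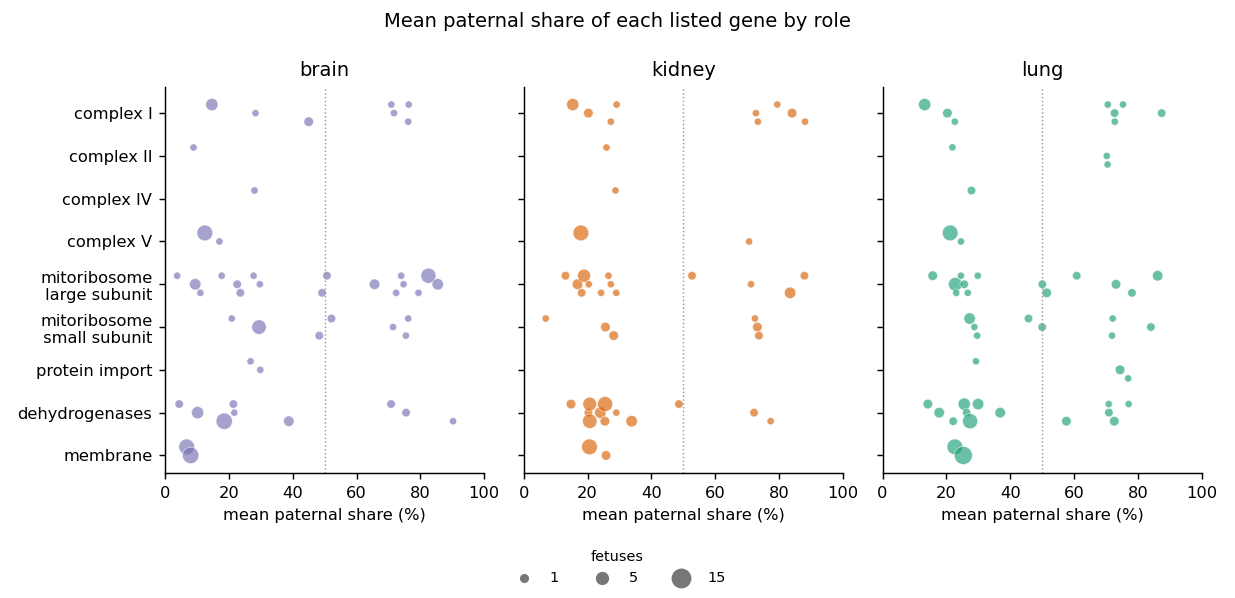
Mean paternal share of reads (x axis, percent) of each listed member in brain, kidney and lung, arranged by role on the y axis; each point is 1 gene, and its area grows with the number of fetuses. The points with many fetuses lie at 6.82% to 27.4% in the membrane, complex V and dehydrogenase rows, and a scatter of genes seen in 1 or 2 fetuses fills both sides.

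Maternal reads led in most members that could be tested. In brain 13 members had values in at least 3 fetuses, and 10 of them were called for a parental bias, 8 towards the mother and 2 towards the father, where 65.5% of all 863 genes tested were called. In kidney 18 of 19 were called, 15 maternal and 3 paternal, against 66% of 1047 genes. In lung 16 of 20 were called, 12 maternal and 4 paternal, against 60.9% of 1476 genes. Calls over all genes leaned to the maternal side too. Brain had 385 maternal calls and 180 paternal ones, kidney 461 and 230, and lung 578 and 321. Whether the members lean further than all genes was not tested. The test was limma's moderated test of the mean log odds of paternal over maternal reads against 0, with a call at an adjusted p under 0.05. Since an entry must lie off 50% to be listed, a call says that the fetuses lay all or mainly on 1 side and not that an unselected gene became unequal. The median log odds of the members tested was -1.45 in brain, -1.11 in kidney and -1.01 in lung, and that of all genes tested was -0.58, -0.55 and -0.42.

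In all 3 tissues 7 members were called on the maternal side, MTCH1, MFF, ATP5G1, NDUFA2, MRPL9, ALDH2 and IDH3A, and 1 member, MRPL13, on the paternal side. These 8 were among 9 members tested in all 3 tissues. The same count over all genes was not made, so whether calls in all 3 tissues are particular to the members was not tested. Tested against the median log odds of all genes in place of 0, 9 brain, 14 kidney and 16 lung members were called, and MFF (adjusted p = 0.114) and IDH3A (adjusted p = 0.0959), each with 3 kidney fetuses, were no longer called in kidney. The 7 maternal-side genes gave 187 of the 524 member entries, and all 187 lay on the maternal side. Over the other 67 members 57% of 337 entries lay on the maternal side, against 56.4% of all autosomal entries. The maternal side was more common with the reference base from the father than with the alternative base. For members it held 73.1%, 78.6% and 74.8% of entries in brain, kidney and lung, against 64.5%, 57.1% and 57.8%. For all autosomal genes it held 60.6%, 57.9% and 57.2%, against 50.8%, 52.5% and an even split. The father gave the reference base in 80.2% of member and 74.2% of all autosomal entries. The gap by base was not tested.

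The 7 genes rest on few SNPs. Of the 187 entries, 181 came from 8 SNPs with at least 8 entries each, which are shown here because each of these results is read at 1 or 2 of them. The reference base stands first, then the position in the deposited lists, then the alternative base, and no source used here gives the genome build.
MTCH1, chromosome 20: C10917908A
MFF, chromosome 2: G228597035T
ATP5G1, chromosome 11: C37126896G
NDUFA2, chromosome 5: C49091533G
MRPL9, chromosome 1: C100471135G
ALDH2, chromosome 17: C61949657A
IDH3A, chromosome 18: G29589563T and G29589765T
All 8 SNPs put another base in place of a C or a G and all 8 are transversions, a class that made up 29.6% of the listed member SNPs and 24.3% of the listed autosomal SNPs. In all 181 entries the father had transmitted the reference base, so at these SNPs the higher allele was both the maternal and the alternative one, and the parent and the base cannot be told apart. MFF had 4 further entries, at G228609724A, A228619510G and A228619517G, in which the father had transmitted the alternative base; their paternal shares were 23.3% to 29.9%, so there the higher allele was the maternal and the reference one. No source used here says how reads from similar gene copies were assigned, which leaves the shares of all 7 genes uncertain in that respect. Whether the SNPs lie in exons or untranslated regions was not analysed here.

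Of the member SNPs, 3 were listed in every informative fetus and in all 3 tissues, those of MTCH1 (11 fetuses), ATP5G1 (11 fetuses) and NDUFA2 (6 fetuses). They are 3 of 287 member SNPs informative in at least 5 fetuses (1.05%), and all autosomal genes together have 20 such SNPs of 35018 (0.0571%). At these SNPs no value is missing, but MTCH1 and ATP5G1 each have other informative SNPs without an entry, and 14 informative fetuses of which 11 have a value. The SNP of MFF was heterozygous in all 15 fetuses, as was that of ALDH2.

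The subunits and assembly factors of complex I, the entry point of electrons from NADH, had 14 listed members of 37 with an informative SNP. NDUFA2, an accessory subunit, had a paternal share in brain of 9.82% at the lowest, 15.7% at the median and 16.7% at the highest of 6 fetuses. In kidney the lowest, median and highest were 9.52%, 15.5% and 18.6%, and in lung 4.49%, 13% and 21.1%. The 3 ranges overlap throughout, and the means were 14.7% ± 2.54 (SD, n = 6), 15.4% ± 3.28 and 13.2% ± 5.56.

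NDUFAF7, a methyltransferase needed to assemble complex I, was called on the maternal side in kidney (20.2% ± 5.05, SD, n = 3, adjusted p = 0.00634) and lung (20.3% ± 5.97, n = 3, adjusted p = 0.0104). In brain its 3 fetuses lay at 26.6%, 34.6% and 73.9% with an adjusted p of 0.74. The brain fetuses thus lay on both sides, and 1 of them had SNPs of this gene on opposite sides. NDUFS3, a subunit of the hydrophilic arm, was called on the paternal side in kidney, at 84.0% ± 9.84 (n = 3, adjusted p = 0.0181). Its main SNP, G75509606C on chromosome 15, was heterozygous in all 15 fetuses but had only 2 kidney entries, with the reference base from the father. The other kidney value, 73.8%, came from G75509924A, with the alternative base from the father. NDUFS3 is given as an example chosen after its values were seen.

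Complex II was represented by SDHD, a membrane anchor of succinate dehydrogenase, in 1 control fetus. Its share was 8.70% in brain (95% Wilson interval 2.42% to 26.8%, 23 reads), 25.8% in kidney (19.4% to 33.4%, 145.5 reads) and 21.9% in lung (14.4% to 31.8%, 84.5 reads). The brain interval overlaps both others, and such intervals cover counting error only. COX15, which makes the heme A of complex IV, lay between 27.7% and 28.6% in its 4 libraries.

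Symbols starting with ATP5, counted as complex V, had 3 listed members of 13 informative ones, and ATP5G1, listed in RefSeq as ATP5MC1, was the only one tested. Roles follow the start of the symbol, so ATP5SL, and TIMMDC1 under protein import, are counted there although both are known as assembly factors of complex I. It encodes the c subunit of the ATP synthase rotor. Its paternal share was 8.26%, 11.6% and 20.6% (lowest, median and highest of 11 fetuses) in brain and 14.2%, 16.7% and 27.5% in kidney, with 11%, 20.2% and 28.8% in lung. Brain was low in nearly all fetuses, but the ranges of the tissues overlap. Other genes encode the same mature c subunit, so the doubt about similar copies bears on it directly.

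The large subunit of the mitochondrial ribosome had the most listed members, 21 of 39. MRPL9, one of its proteins, had brain shares of 4.88%, 6.90%, 9.84%, 11% and 14.8% in 5 fetuses. In kidney the lowest, median and highest of 7 fetuses were 14.9%, 18.2% and 21.7%, and in lung 18.2%, 22.9% and 29.5% of 8. The highest brain value lay just below the lowest kidney value, and kidney and lung overlap.

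MRPL13, another large-subunit protein, was the gene on the paternal side. Its shares were 73.2%, 81.7%, 83.8%, 93.2% and 95.3% in brain and 73.9%, 79.1%, 83.3%, 89.0% and 91.7% in kidney, with 82.8%, 86.9%, 87.2% and 87.8% in lung. The tissues overlap, and the adjusted p for the bias was 0.00262, 0.00121 and 0.000292. Its entries come mainly from C94117388T, G94117415A and C94117417T on chromosome 9, which lie close enough for 1 read to cover all of them. In every entry of these 3 SNPs the father had transmitted the reference base. The higher allele was there both the paternal and the reference one, and the parent and the base cannot be told apart. At G94085802A, listed in 1 brain fetus at 73.2%, the father had transmitted the alternative base.

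MRPL1 was listed in brain only, in 10 fetuses, with shares of 55.4% at the lowest, 86.4% at the median and 95.9% at the highest (82.5% ± 12.3, SD, adjusted p = 0.000116). Its main SNP, G92156841A on chromosome 6, was heterozygous in all 15 fetuses and had no entry in kidney or lung. In all 9 of its entries the father had transmitted the reference base, so there too the parent and the base cannot be told apart. The lowest value came from the only fetus in which a second SNP lay on the other side. MRPL39 had 3.85% in 1 brain library (95% Wilson interval 0.682% to 18.9%), 11.5% and 14.7% in kidney, and 13.2%, 15.1% and 18.9% in 3 lung libraries, where it was called (adjusted p = 0.00325).

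The small subunit had 11 listed members of 23. MRPS10 was called in lung, at 22.9%, 27.5%, 27.7%, 29.2% and 29.3% (adjusted p = 0.00051), and stood at 6.90% in its single kidney library (Wilson interval 1.91% to 22%). Its SNP C15948128T on chromosome 20 was heterozygous in 12 fetuses and had 4 lung entries, at 27.5% to 29.3%, close to the 30% limit. In every MRPS10 entry the father had transmitted the reference base. MRPS9, chosen after its values were seen, was called on the maternal side in brain at 29.5% ± 17.2 (n = 9, adjusted p = 0.00869) and in kidney at 25.6% ± 2.21 (n = 3, adjusted p = 0.0066). Its brain fetuses ran from 14.6% to 74.0%, with 1 of them on the paternal side. The main SNP of MRPS9, C97116756G on chromosome 3, was heterozygous in 14 fetuses, with 6 brain and 3 kidney entries. In all 9 of these the father had transmitted the reference base. Protein import had 4 listed members of 17, and TOMM5, a small subunit of the outer membrane translocase also named after its value was seen, was called on the paternal side in lung (74.4% ± 3.11, n = 3, adjusted p = 0.00923).

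The dehydrogenases had 15 listed members of 19 informative ones. Of the listed ones, IDH1, ALDH1A1, ALDH1A2, ALDH1A3, ALDH3A2 and ALDH9A1 are known to act mainly outside mitochondria and were counted by symbol. ALDH2, the matrix enzyme that clears acetaldehyde, had shares of 9.76%, 18.5% and 25.8% (lowest, median and highest of 12 fetuses) in brain, 19.3%, 27.1% and 29.0% of 10 in kidney, and 22.6%, 28.7% and 29.8% of 10 in lung. The lung median lay close to the 30% limit of the lists, and 5 of the 15 heterozygous fetuses had no lung entry, so the true lung mean may be higher than the 27.4% ± 2.65 (SD) listed.

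IDH3A and IDH3B encode the catalytic and a regulatory subunit of the isocitrate dehydrogenase of the citric acid cycle. IDH3A had 6.84%, 10.1% and 14.7% (lowest, median and highest of 6 fetuses) in brain, 19.2%, 27.9% and 29.2% in 3 kidney libraries, and 14%, 14.4%, 19.4% and 23.3% in 4 lung libraries. Brain and kidney do not overlap, and brain and lung overlap at the edge. IDH3B had 4.08% and 4.88% in 2 brain libraries and 11.2%, 15.2% and 18% in kidney, with 9.84%, 12.2% and 20.5% in lung, and was called in kidney (adjusted p = 0.00328) and lung (adjusted p = 0.00636). Both brain values of IDH3B lay below all 6 of the other tissues, but with 2 brain libraries no test was made.

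ALDH6A1, an enzyme of valine breakdown, was called in kidney with 14.3%, 17.6% and 29.0% (lowest, median and highest of 9 fetuses, adjusted p = 6.36e-06). Its only listed SNP, C82291308T on chromosome 7, was heterozygous in 14 fetuses, and in all 13 entries the father had transmitted the reference base. ALDH3A2, a fatty aldehyde dehydrogenase that acts mainly outside mitochondria, was called in kidney at 17%, 24.4%, 25.5%, 26.4% and 26.7% (adjusted p = 0.000568). Its only listed SNP, C33431395G on chromosome 11, was heterozygous in all 15 fetuses, but only 5 had a kidney entry. In all 7 ALDH3A2 entries the father had transmitted the reference base. For both genes the parent and the base cannot be told apart. ALDH5A1, which breaks down the product of the inhibitory transmitter GABA, was called in lung, from 20.4% to 28.6% in 6 fetuses (adjusted p = 0.000101), and not in brain, where 3 fetuses lay at 26.2%, 26.4% and 27.6% and 1 at 75.0% (adjusted p = 0.412). ALDH1A1, a cytosolic retinal dehydrogenase, had 90.2% in 1 brain library of 20.5 reads (Wilson interval 70.5% to 97.3%) and 29.0% in 1 kidney library at another SNP.

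MFF and MTCH1 sit in the outer mitochondrial membrane; MFF recruits the fission enzyme DNM1L, and MTCH1 is a relative of the insertase MTCH2. MFF had 1.28%, 8.0% and 16.1% (lowest, median and highest of 12 fetuses) in brain, 18.2%, 29.3% and 29.9% in 3 kidney libraries, and 21.3%, 25.3% and 29.6% in all 15 lung libraries. No brain value reached the lowest kidney or lung value. MTCH1 had 0.985%, 6.57% and 11.8% in brain and 12.0%, 19.9% and 29.3% in kidney, with 16.3%, 22.8% and 27.6% in lung, each in the same 11 fetuses. The highest brain value lay below the lowest value of both other tissues.

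**Figure D2:**
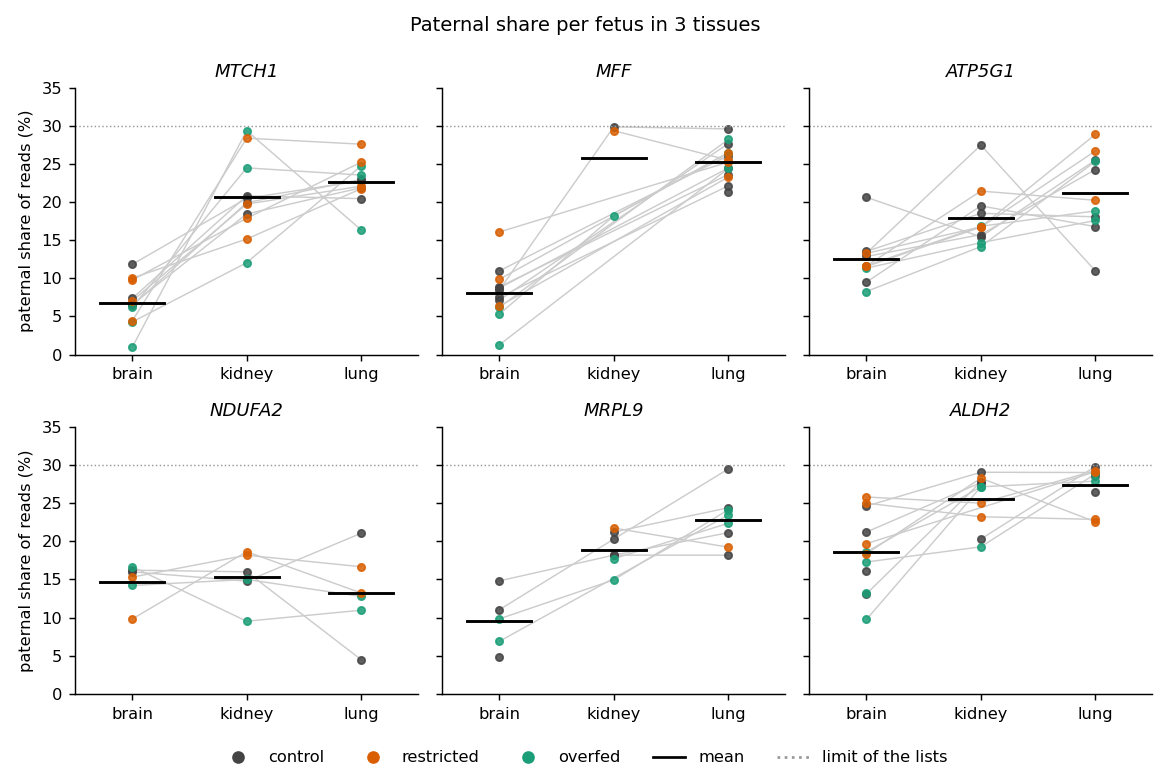
Paternal share of reads (y axis, percent) in brain, kidney and lung for 6 members; each point is 1 fetus coloured by ewe diet, grey lines join the same fetus, bars are means and the dotted line at 30% is the upper edge of what the lists can hold on this side. MTCH1 and MFF show brain points apart from lung, MRPL9, ATP5G1 and ALDH2 a smaller step, and NDUFA2 none.

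The paternal share of several members was lower in brain than in the other tissues. Brain was lower than kidney in 6 of 10 members tested, where 11.6% of all 465 genes tested were called, and lower than lung in 5 of 10, against 15% of 512 genes. No member was higher in brain at the threshold, and over all genes 45 of 54 and 61 of 77 calls were lower in brain. MFF and MTCH1, which the rule names singly and not by symbol family, are among the calls in both comparisons. Members were chosen with earlier results of these data known, so these counts are not independent of that choice. Between kidney and lung 0 of 11 members were called by limma, and 0 had an unadjusted p under 0.05, against 0.407% of 738 genes. The 2 brain comparisons share the brain libraries and are not independent of each other.

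MTCH1 and MFF differed most. The mean of MTCH1 was 6.82% ± 3.02 (SD, n = 11) in brain, 20.6% ± 5.18 in kidney and 22.7% ± 2.87 in lung, and its log odds in brain differed by -1.33 ± 0.17 (SE) from kidney (adjusted p = 1.06e-06) and by -1.45 ± 0.18 from lung (adjusted p = 1.43e-07). Brain was lower in 11 of 11 fetuses against both tissues. MFF, at 8.07% ± 3.55 (n = 12) in brain, differed by -1.35 ± 0.23 from kidney (25.8% ± 6.60, n = 3, adjusted p = 7.94e-05) and by -1.34 ± 0.14 from lung (25.3% ± 2.24, n = 15, adjusted p = 1.78e-08). Of the 15 heterozygous fetuses only 3 had a kidney value, at 2 SNPs, and 2 of these values lay close to the 30% limit. At the same SNP, MFF was lower in brain than in lung in 11 of 11 fetuses, with a mean difference of -17.5 percentage points ± 4.52 (SD).

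MRPL9 fell from 18.9% ± 2.36 in kidney and 22.8% ± 3.51 in lung to 9.49% ± 3.84 in brain, with log odds differences of -0.74 ± 0.16 (adjusted p = 0.00228) and -0.96 ± 0.16 (adjusted p = 0.000149). ATP5G1 was at 12.5% ± 3.15 in brain, 17.9% ± 3.82 in kidney and 21.2% ± 5.35 in lung, with differences of -0.43 ± 0.13 (adjusted p = 0.0205) and -0.63 ± 0.13 (adjusted p = 0.000534). Brain was the lower in 10 of 11 fetuses against each tissue. Without control replicate 4 or restricted replicate 4 the brain-kidney difference of ATP5G1 was no longer called (-0.40, adjusted p = 0.0554, and -0.40, adjusted p = 0.0628).

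ALDH2 was at 18.6% ± 5.06 in brain, 25.5% ± 3.45 in kidney and 27.4% ± 2.65 in lung, with differences of -0.40 ± 0.11 (adjusted p = 0.0141) and -0.48 ± 0.11 (adjusted p = 0.00267). IDH3A was called against kidney (-1.07 ± 0.23, adjusted p = 0.00719) and not against lung (-0.63 ± 0.22, adjusted p = 0.0784). With the test restricted to SNPs listed in both tissues of the same fetus, ALDH2 lost both calls (-0.38, adjusted p = 0.132, and -0.27, adjusted p = 0.29), MRPL9 lost the call against kidney (-0.43, adjusted p = 0.348), and IDH3A gained the one against lung (-0.84, adjusted p = 0.0394). MFF and IDH3A had too few such fetuses for this test against kidney. NDUFA2 was tested and not called against kidney (-0.06 ± 0.22, adjusted p = 0.907) or lung (0.18 ± 0.23, adjusted p = 0.678), nor were MRPL13 (0.21 ± 0.33 and 0.05 ± 0.35) and NDUFAF7 (1.13 ± 0.50 and 1.12 ± 0.51).

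**Figure D3:**
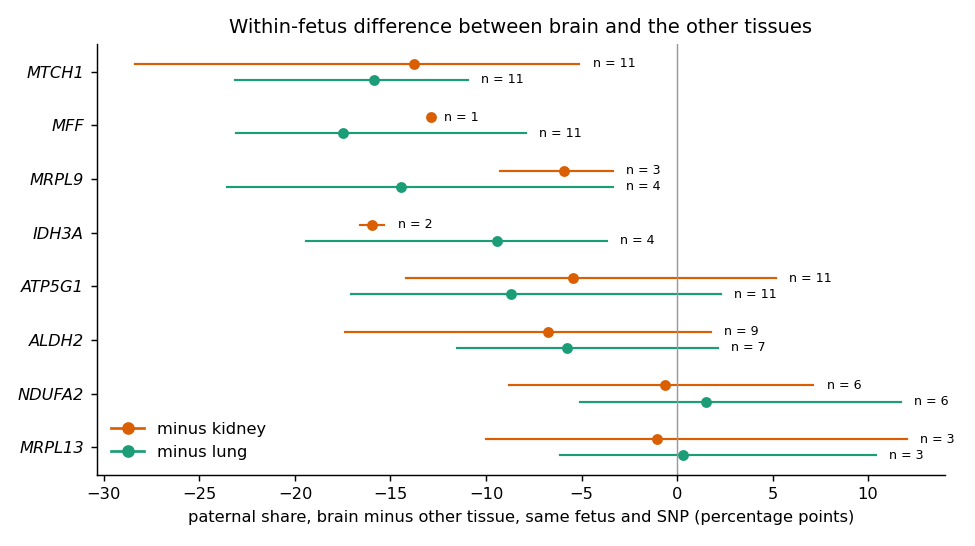
Difference in paternal share between brain and kidney or lung of the same fetus at the same SNPs (x axis, percentage points) for 8 members; points are means over the fetuses (n beside each), lines run from the lowest to the highest fetus. MTCH1 lies wholly below 0 with 11 fetuses in both comparisons, while NDUFA2 and MRPL13 straddle 0.

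Over all members listed at the same SNP in both tissues of a fetus, brain was lower than kidney in 47 of 58 pairs of a gene and a fetus (81.0%) and lower than lung in 59 of 71 (83.1%), and kidney was lower than lung in 41 of 70 (58.6%). The same counts over all autosomal genes were 59.9% of 2019, 62.4% of 2467 and 53.7% of 3296. The sets are not alike in side, with 72.3% of member entries and 56.4% of all autosomal entries on the maternal side. A lower paternal share means a stronger bias on the maternal side and a weaker one on the paternal side. The counts over all genes were not split by side, so the gap was not tested as a trait of the members. The 7 genes called on the maternal side in all 3 tissues gave 37 of 43 pairs lower in brain than in kidney and 49 of 54 lower than in lung. The other members gave 10 of 15 (66.7%) and 10 of 17 (58.8%), close to the share over all genes. By gene, the mean was lower in brain than in kidney for 15 of 19 members and lower than in lung for 13 of 19. Pairs of 1 gene share a SNP and, for several genes, littermates, and no test was made on these counts. Members with a higher mean in brain than in both tissues included ALDH5A1 and NDUFAF7, each seen in at most 2 such fetuses and picked out after their values were seen.

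Read numbers give a view of the level of these transcripts, though only where an entry was listed. The rule names symbols and not read numbers, but an entry needed at least 20.5 reads. Members were also chosen with earlier results known, so the choice was not independent of read numbers. Coverage here means log2(reads + 1), from the average number of reads at a member's listed SNPs, scaled per library over 68 genes listed in at least 30 libraries. In a bulk tissue fewer cells of a type and less RNA per cell cannot be told apart. Between brain and kidney 5 of 10 members were called, 4 higher in brain and 1 lower, against 33.8% of all genes tested; between brain and lung 7 of 10, 6 higher and 1 lower, against 43.8%; and between kidney and lung 3 of 11, 1 higher in kidney and 2 lower, against 20.3%. Over all genes 103 of 157 calls were higher in brain than in kidney, 166 of 224 higher in brain than in lung, and 84 of 150 higher in kidney than in lung. The median difference of the members tested was 0.57, 0.86 and 0.35 in these 3 comparisons, and that of all genes tested was 0.16, 0.29 and 0.11.

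ATP5G1 had 48.5, 225.5 and 279 reads (lowest, median and highest library) in brain and 25.5, 203.5 and 311 in kidney, with 44.5, 82.5 and 201.5 in lung. Its scaled coverage was higher in brain than in lung by 1.97 ± 0.21 (SE, log2, adjusted p = 2.13e-09) and higher in kidney than in lung by 1.31 ± 0.21 (adjusted p = 1.98e-05), a call lost without scaling (0.71, adjusted p = 0.265) and with the library median (0.84, adjusted p = 0.116). ALDH2 went the other way, with 20.5, 35.5 and 71.5 reads in brain and 28, 61.5 and 126 in kidney, with 94, 182 and 564 in lung. Brain differed from lung by -1.78 ± 0.12 (adjusted p = 1.79e-14) and from kidney by -0.75 ± 0.12 (adjusted p = 4.75e-06), and kidney from lung by -1.03 ± 0.12 (adjusted p = 1.3e-07). The brain range of ALDH2 lies below the whole lung range.

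The median library of MTCH1 had 113.5 reads (brain), 105.5 reads (kidney) and 194 reads (lung). On the scaled values it was higher in brain than in kidney by 0.81 ± 0.10 (adjusted p = 2.17e-07), lower in kidney than in lung (-0.71 ± 0.11, adjusted p = 6.91e-06), and not called between brain and lung (0.10 ± 0.11, adjusted p = 0.429); without scaling the last value turned to -0.78 (adjusted p = 0.0275). IDH3A (1.16 ± 0.22 and 1.81 ± 0.20) and MFF (0.75 ± 0.25 and 0.77 ± 0.15) were higher in brain than in kidney and lung, and ALDH5A1 (1.73 ± 0.25), NDUFA2 (1.09 ± 0.28) and MRPL13 (0.94 ± 0.24) were higher in brain than in lung, on the scaled values. Without scaling MRPL13 turned to -0.04 (adjusted p = 0.933), and NDUFA2 was at 0.09 (adjusted p = 0.914) and MFF at 0.18 (adjusted p = 0.644) against lung; MFF was at 0.35 (adjusted p = 0.649) and IDH3A at 0.72 (adjusted p = 0.269) against kidney, and IDH3A at 0.56 (adjusted p = 0.263) against lung. MRPL13 also lost its call without control replicate 6 (0.65, adjusted p = 0.0654).

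These coverage calls lean on the scaling. Without it 0 of 10 members were called between brain and kidney, 5 of 10 between brain and lung (2 higher and 3 lower in brain, MRPL9 newly lower at -0.69) and 2 of 11 between kidney and lung (both lower in kidney). The same fits called 56 of 465, 113 of 512 and 72 of 738 of all genes. Scaled to the library median, 1 of 10 (lower), 5 of 10 (3 higher and 2 lower) and 2 of 11 (both lower) were called, against 82 of 465, 123 of 512 and 85 of 738 of all genes. The lower coverage of ALDH2 in brain than in lung and the higher coverage of ATP5G1 and ALDH5A1 there kept their calls under both.

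**Figure D4:**
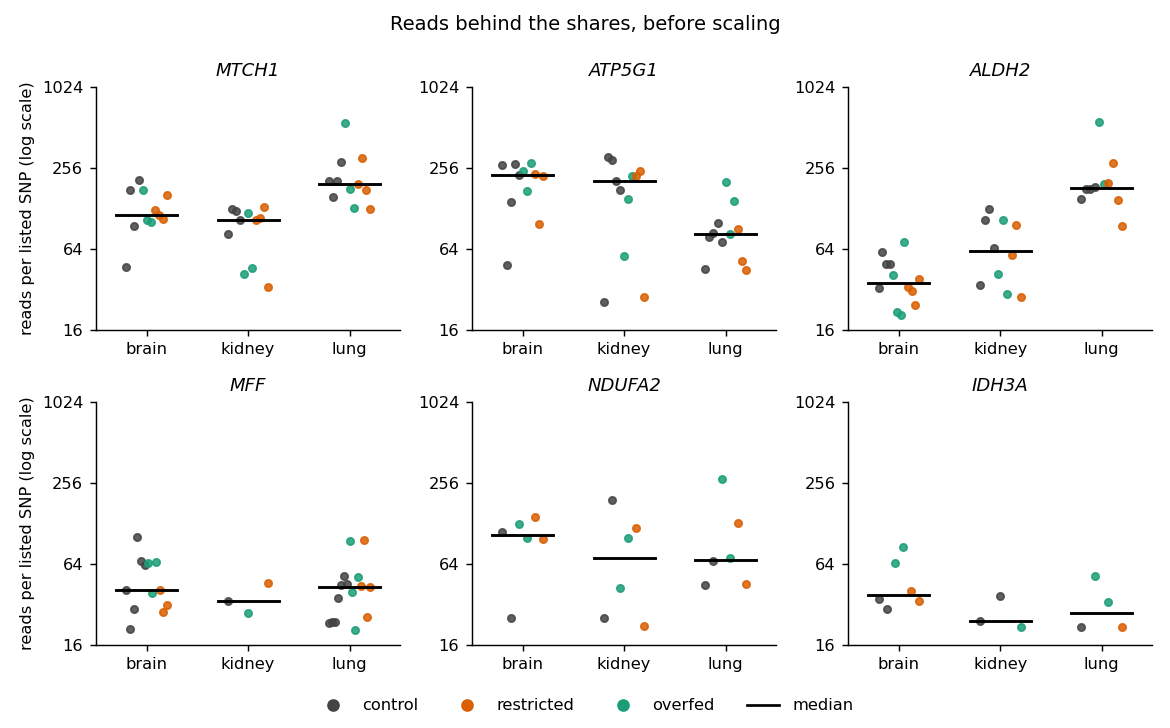
Reads per listed SNP before scaling (y axis, log scale) in brain, kidney and lung for 6 members; each point is 1 fetus coloured by ewe diet and bars are medians. ALDH2 climbs from a median of 35.5 in brain to 182 in lung, ATP5G1 drops from 225.5 to 82.5, and the low kidney points of MTCH1 and ATP5G1 come from libraries with few entries.

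No member was called between the 3 ewe diets. The ewe was the unit, littermates were averaged, and members with at least 2 ewes in each diet were tested: 8 in brain, 6 in kidney and 6 in lung. By limma's F test 0 of 20 tests of the share and 0 of 20 tests of coverage were called, where 0% of all 147, 165 and 295 genes tested were called for either measure. Unadjusted values under 0.05 numbered 0 for the share and 2 for coverage, IDH3A in brain (adjusted p = 0.94) and MFF in lung (adjusted p = 0.584).

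The share came nearest to the threshold before adjustment for MFF in brain (adjusted p = 0.825). Its brain shares were 7.14% to 11% in 6 control fetuses, 6.35%, 9.88% and 16.1% in 3 restricted fetuses, and 1.28%, 5.30% and 6.20% in 3 overfed fetuses. The overfed values lay below the others, at a difference from control of -0.74 in log odds. MTCH1 in brain had 6.44% to 11.8% in 4 control fetuses, 4.44% to 10.03% in 4 restricted fetuses, and 0.985%, 4.29% and 6.22% in 3 overfed fetuses, with an overfed difference of -0.93 (adjusted p = 0.825). The overfed and restricted ranges overlap. In kidney and lung the 3 diets overlapped for MTCH1. With so few ewes a diet, differences of this size did not pass the adjustment over all genes.

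Few SNPs allow the parent and the base to be separated. In 1 tissue or more, 3 member SNPs were listed with the reference base from the father in some fetuses and the alternative base in others, in 4 cases of a SNP and a tissue, and in all 4 the higher allele kept to the base. They lie in MRPL17, a large-subunit protein, at G45695886T and A45695912C on chromosome 15, and in MRPL19, also of the large subunit, at G62470050A on chromosome 3. At A45695912C in brain the paternal share was 76.0%, 88.4% and 84.0% in 3 fetuses with the reference base from the father and 20.0% in 1 fetus with the alternative base. At G62470050A in kidney it was 27.8% with the reference base from the father and 77.6% with the alternative base. The fetuses carrying either base are few, and the 7 maternal-side genes have no such SNP.

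Other mitochondrial genes outside the symbol rule were looked at through 5 lists with 103 genes, of which 45 were listed. Of these, 6 were called in brain (4 maternal and 2 paternal of 7 tested), 3 in kidney (3 maternal of 5 tested) and 4 in lung (3 maternal and 1 paternal of 6 tested), numbers too small to set apart from the 65.5%, 66% and 60.9% called over all genes. SLC25A3, the phosphate carrier that feeds ATP synthesis, was called in all 3 tissues, with a mean brain share of 12.8% ± 6.82 (SD, n = 13), a kidney share of 20.7% ± 3.94 (n = 12) and a lung share of 23.7% ± 4.76 (n = 11). It was also lower in brain than in kidney (-0.69 ± 0.22, adjusted p = 0.0296) and lung (-0.87 ± 0.22, adjusted p = 0.00527), the one gene of these lists called between tissues, of 4 and 5 tested. SPG7, a subunit of the inner membrane protease, was on the maternal side in all 3 tissues (22.6% ± 18.2, n = 11, 23.2% ± 9.93, n = 6, and 30.4% ± 17.7, n = 12), and CLPX, of the matrix protease, on the paternal side in brain (73.2% ± 1.57, n = 3) and lung (75.0% ± 3.99, n = 5). MTFP1, a fission protein, lay on the maternal side in both brain (18.1% ± 4.13, n = 5) and kidney (18.1% ± 7.72, n = 3). POLG was called by limma in brain (15.8% ± 7.45, n = 8), but not in kidney (24.9% ± 30.7, n = 8, adjusted p = 0.18) or lung (44.8% ± 27.6, n = 14, adjusted p = 0.885). In every entry of SLC25A3, SPG7 and POLG the father had transmitted the reference base, so the parent and the base cannot be told apart. No rule set in advance chose which genes of these lists are named.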

How the data were processed

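RNA-seq allele lists of brain, kidney and lung from 15 sheep fetuses were used, with ram genotype lists for the informative SNPs. The deposited values are estimated counts of reads per parental allele, averaged by the authors over alignments to a reference and an alternative genome per the labels and file names; 65.3% of entries hold a value that is not whole. Trimmomatic 0.33 and HISAT2 2.0.5 are named in the submitters' processing notes without a role, and no source used here gives the build. Listing was checked: every entry had at least 20.5 reads and 70.02% of them on 1 allele.

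Reads were summed per gene and fetus over SNPs with at least 10 reads. Log odds (natural log, paternal over maternal, 0.5 added to both sums) were tested with limma 3.58.1 (R 4.3.3) over all genes, Benjamini-Hochberg adjusted. Tissue fits used all 45 libraries and needed 3 fetuses or more per tissue; diet used ewes. Titles pair the tissues of a fetus (correlation within a fetus 0.148 to 0.187). P-values measure the spread between fetuses, some of which are littermates. Scripts were tested on simulated data. Members and lists were chosen with earlier results of these data known. Named by rule were MFF and MTCH1, members with 3 fetuses in every tissue, members called between tissues, the 8 with the lowest adjusted p per tissue among those in at least 5 fetuses, members with SNPs seen with either base from the father, and those with a mean share up to 10% or from 90%. Of 74 symbols, 70 matched RefSeq (ARS-UI_Ramb_v3.0) directly and 1 as a synonym, all 71 on the listed chromosome.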

Additional observations from a re-analysis of the deposited data

Results flagged for a closer look

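The parental bias differed between tissues in 11 tests, as log odds of paternal over maternal reads in brain minus the other tissue by limma. Against kidney the differences were -0.40 for ALDH2, -0.43 for ATP5G1, -1.07 for IDH3A, -1.35 for MFF, -0.74 for MRPL9 and -1.33 for MTCH1, and against lung -0.48 for ALDH2, -0.63 for ATP5G1, -1.34 for MFF, -0.96 for MRPL9 and -1.45 for MTCH1.

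Among 20 groups of 4 to 10 fetuses of the named members, 5 held 1 fetus far from the others, where chance flags about 1 in 20 when values are free to take any level. Single-SNP shares between 30% and 70% are absent from the lists, so a fetus on the other side stands far off by construction and that rate does not apply to the first 2 cases here. The other 3 groups are capped at 30% by the same filter, so the rate may not hold there either. ALDH5A1 in brain had 75.0% in overfed replicate 2, against 27.6% for the nearest fetus, at a SNP listed in no other fetus. MRPL17 in brain had 26.6% in overfed replicate 1, against 76.0%, and that fetus had the alternative base from its father. The other 3 were ALDH3A2 in kidney (17% in restricted replicate 2, nearest 24.4%), MRPS10 in lung (22.9% in restricted replicate 1, nearest 27.5%) and NDUFA2 in brain (9.82% in restricted replicate 2, nearest 14.2%).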

How the results depend on the processing

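Depth and the share filter set the limits: a member needed 20.5 reads at a heterozygous SNP in 3 fetuses, and lists of shallow libraries are short. Counts of members called moved by more than 1.5 times in these cases. Parental bias (main 10, 18 and 16 in brain, kidney and lung) gave 8 in kidney and 9 in lung with SNPs of at least 30 reads, 9 and 8 with at least 5 fetuses, 7 and 7 when signs were flipped in an exact permutation test, which needs 6 fetuses (7 of 7 members tested in both), and 4, 8 and 10 without SNPs heterozygous in 10 or more fetuses. Share differences (6, 5 and 0 for brain against kidney, brain against lung, and kidney against lung) gave 3 for the first at 30 reads, and 2 and 1 without SNPs heterozygous in 10 or more fetuses. At 30 reads 3 of 4 members tested were called, against 51 of 243 of all genes. Without the widely heterozygous SNPs it was 2 of 4 and 1 of 5 members, against 8 of 251 and 12 of 291 genes. The main fits called 54 of 465 and 77 of 512 of all genes, so the rate over all genes fell as well. The SNPs left out include the main ones of MTCH1, MFF, ATP5G1 and ALDH2. Coverage (5, 7 and 3) gave 2 for the first at 30 reads, 4 for the second with 5 fetuses, 1, 4 and 1 without the widely heterozygous SNPs, and 0 and 1 for the first without scaling and with the library median. Without the widely heterozygous SNPs these were 1 of 4, 4 of 5 and 1 of 5 members, against 64 of 251, 143 of 291 and 84 of 408 of all genes. At 30 reads the first was 2 of 4 members, against 95 of 243 of all genes. With 5 fetuses the second was 4 of 6, against 128 of 240. In all of these cases fewer members could be tested, except for the scaling. The cause of the changes was not tested. With fetus as a replicate block the share counts were 6, 5 and 0 and the coverage counts 6, 7 and 3, the added member being MRPL13 between brain and kidney (adjusted p = 0.0345). Paired within the fetus on the same SNPs, the share gave 2 of 6 tested for brain against kidney and 5 of 8 against lung, and coverage 3 of 6 for brain against kidney and 6 of 7 for kidney against lung. Blocking the diets by the number in the title, which marks different animals, gave 0 calls. Without scaling, the brain-lung coverage of MRPL13 turned to -0.0429 and that of MTCH1 to -0.784. Leaving out 1 fetus at a time gave 10 to 11, 14 to 18 and 13 to 17 members for bias, 3 to 6, 5 to 5 and 0 to 0 for the share, 3 to 6, 6 to 7 and 3 to 3 for coverage, and 0 to 0 for both diet measures. The 3 in the share came without control replicate 4 (7 members tested), and the 3 in coverage without control replicate 4 or overfed replicate 4. Of 1347 single-member values with 1 fetus left out, 6 lost a call and 6 gained one; of 639 under the other alternatives, 25 lost one, 12 gained one and 2 reversed. Leaving out the 6 libraries with fewer than 400 entries, chosen after seeing the data, gave 10, 16 and 16 for bias, 6, 5 and 0 for the share and 4, 7 and 4 for coverage; ATP5G1 lost its brain-kidney coverage call (0.348, adjusted p = 0.0676).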

Other observations

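A further 2 genes with matching symbols lie on the X chromosome and were left out of the members. IDH3G, the regulatory partner of IDH3A and IDH3B, had a brain paternal share of 16.7% ± 4.21 (SD, n = 8), a kidney share of 19.1% ± 8.25 (n = 7) and a lung share of 29.2% ± 17.1 (n = 5, from 13.3% to 58.4%). TIMM8A, an intermembrane-space import chaperone, had 25.1% ± 2.66 (n = 2) in brain, 27.2% ± 1.24 (n = 3) in kidney and 15.7% in 1 lung library.

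MRPL15, a large-subunit protein chosen after its values were seen, lay on both sides in lung, with 26.5%, 27.8% and 100%. In kidney its 2 fetuses were at 78.4% (95% Wilson interval 62.8% to 88.6%) and 97.4% (86.8% to 99.5%), and in brain at 26.1% and 72.3%. Of 48 cases in which a member had several listed SNPs in 1 library, 3 (6.25%) had SNPs on opposite sides, in MRPL1, MRPL17 and NDUFAF7.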
